A study of Mus musculus with 22 samples.

Results

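Expression was followed for 9 genes of ion and water transport across the lung epithelium: the sodium channel genes Scnn1a, Scnn1b and Scnn1g, the chloride secretion genes Cftr, Slc12a2 and Ano1, the sodium pump subunit gene Atp1b1, and the water channel genes Aqp3 and Aqp4. They were chosen by name and function, with earlier results of these data known. All 9 were measured in each of the 22 libraries, among 13750 genes at embryonic stage E18.5, shortly before birth, and 15958 genes at 6 months.

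The fluid that lines airways and alveoli is set by the balance of salt secretion and salt absorption, and water follows the salt. Before birth the lung epithelium secretes chloride and the lung is filled with fluid: Slc12a2 (the cotransporter NKCC1) loads chloride into the cell, and the apical channels CFTR and anoctamin 1 (Ano1, a calcium-activated chloride channel) let it out. Around birth the direction turns to absorption, for which sodium enters through the epithelial sodium channel ENaC, built of an alpha (Scnn1a), a beta (Scnn1b) and a gamma (Scnn1g) subunit, and leaves through the sodium pump, whose beta subunit is encoded by Atp1b1. Aquaporin 3 and aquaporin 4 are water channels of airway epithelium, and aquaporin 3 also passes glycerol.

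The study compared lung epithelial cells of mice with altered alleles of Nkx2-1, the gene of a transcription factor that specifies lung epithelium, and of its neighbour NANCI, a long noncoding RNA gene. WT mice were NANCI +/+. Both copies of the locus carried NANCI-CreERT2:RFP in NANCI mice, Nkx mice carried Nkx2.1-GFP/+, and Double mice carried NANCI-CreERT2:RFP/+ together with Nkx2.1-GFP/+. At E18.5 there were 3 libraries of each of the 4 genotypes, while the 6-month series had 3 WT, 3 Nkx and 4 Double libraries; no 6-month NANCI group was analysed here. The alleles are named for Cre recombinase and for red and green fluorescent protein. The sources used here do not give what each insertion leaves of its gene, nor whether the CreERT2 fusion was induced. E18.5 cells were enriched with magnetic beads for the epithelial surface protein EpCAM, without a gate named against other cells. The 6-month cells were sorted as EpCAM+, CD45- and CD31-, a gate set against leukocytes and endothelial cells. Whether replicates came from separate animals is not stated, so the p-values speak of library-to-library spread alone, which may be technical.

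Values are deposited log2 expression, normalised to a common distribution within each age, so values are compared within an age only. Read totals are unknown. Nkx2-1 ranged from 14.48 to 14.95 over all E18.5 libraries and from 13.75 to 14.55 over the 6-month ones, and its difference from WT did not pass in any group (limma adjusted p = 0.114 to 0.978). Since the exons left by the alleles are not given, this level does not check the labels. All 10 pan-epithelial markers were measured at both ages. From Xist and Y-linked genes, the 4 6-month Double libraries were female and 2 of the 3 6-month WT libraries male. The E18.5 NANCI libraries were all male, and the other groups held both sexes. E18.5 Nkx replicate 3, called male with Y-linked genes at 12.22, is less clear. Its Xist level of 11.34 lay above the 7.21 to 8.48 of the other E18.5 libraries called male, and whether it mixes both sexes was not tested.

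Levels of different genes were set side by side after subtracting the log2 of each gene's exon length in kb. On this log2 per-kb scale, the mean level in E18.5 WT libraries was 14.21 for Atp1b1, 11.97 for Scnn1a, 11.47 for Scnn1g, 11.31 for Slc12a2, 10.81 for Ano1, 10.24 for Cftr, 10.16 for Scnn1b, 8.25 for Aqp4 and 6.65 for Aqp3. The sodium pump subunit therefore stood highest and the water channels lowest. Scnn1a and Scnn1g, Scnn1g and Slc12a2, Slc12a2 and Ano1, and Cftr and Scnn1b each lay closer together than the larger of their SDs over the 3 libraries. In 6-month WT libraries the order was Atp1b1 at 14.05, Scnn1a at 11.76, Slc12a2 at 10.68, Scnn1b at 10.33, Scnn1g at 9.73, Cftr at 8.83, Ano1 at 8.66, Aqp3 at 7.44 and Aqp4 at 6.5, all as mean log2 level per kb. There Slc12a2 and Scnn1b, Cftr and Ano1, Cftr and Aqp3, Ano1 and Aqp3, and Aqp3 and Aqp4 could not be ordered beyond that spread. Atp1b1 stood above at least 99.6% of all genes in every library of both ages, whereas Aqp3 stood above 10.7% to 23.7% of genes at E18.5.

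Counted over the 9 genes, differences that passed the threshold were found where the Nkx2.1-GFP allele was present at E18.5 and where both alleles were present at 6 months. Differences were tested with limma across all genes of an age, and adjusted p-values are Benjamini-Hochberg values over those genes with a threshold of 0.05. In E18.5 NANCI against WT, 0 of the 9 genes passed, where 0.0% of all genes did. In that comparison 1 of the 9, and 426 of all genes (3.1%), had an unadjusted p under 0.05, and the smallest adjusted p among all genes was 0.0822. Aqp3 alone passed in E18.5 Nkx against WT, 1 lower gene of 9, beside 7.32% of all genes (3.67% higher and 3.65% lower). In E18.5 Double against WT 3 of 9 passed, 1 higher and 2 lower, beside 14.6% of all genes (7.13% higher and 7.47% lower). In E18.5 Double against Nkx 0 of 9 passed, beside 0.00727% of all genes (1 gene); 1 of the 9, and 559 of all genes (4.07%), had an unadjusted p under 0.05.

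At 6 months, 0 of 9 passed in Nkx against WT, beside 2.63% of all genes (1.52% higher and 1.11% lower), while 3 of the 9, and 3495 of all genes (21.9%), had an unadjusted p under 0.05. In 6-month Double against WT 5 of 9 passed, 2 higher and 3 lower, beside 36.3% of all genes (18.4% higher and 17.9% lower). In 6-month Double against Nkx 3 of 9 passed, 1 higher and 2 lower, beside 21.7% of all genes (10.2% higher and 11.5% lower). The single call in E18.5 Nkx against WT is a share near that of all genes, and with 9 genes the other counts say little beyond the genes themselves. The median log2 fold change over the 9 genes was between -0.2 and 0.13 in the 7 comparisons, and that over all genes between 0.0 and 0.06. The comparisons against WT share the WT libraries of an age, and those against Nkx share the Double libraries with them, so they are not independent of each other.

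**Figure D1:**
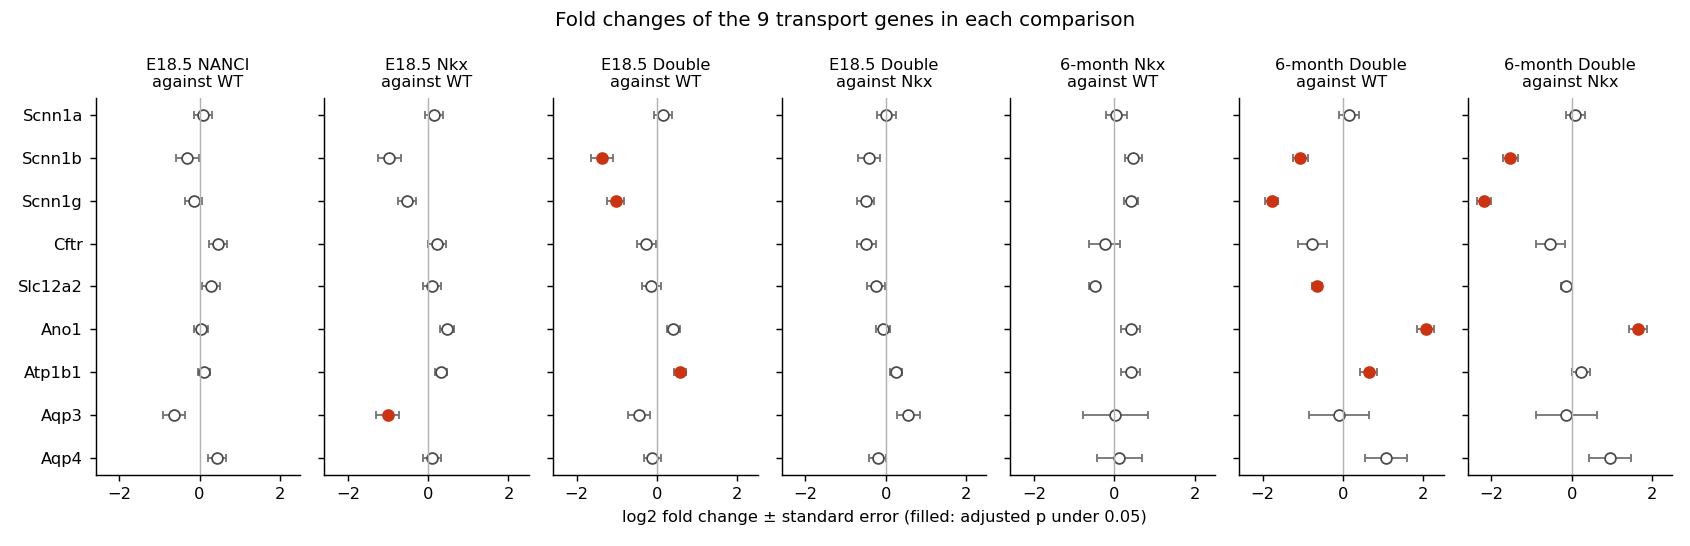
Log2 fold change of the 9 transport genes (points) with limma's standard error (bars) in the 7 comparisons, 1 panel each; filled points passed an adjusted p of 0.05. Scnn1b and Scnn1g lie left of 0 in each comparison with Double, and Ano1 lies farthest right in 6-month Double against WT, at 2.06.

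The 3 ENaC subunit genes parted in the mutant libraries: in Double against WT the beta and gamma genes fell at both ages, and the alpha gene did not pass. Scnn1b (ENSMUSG00000030873; GRCm38 chr7:121865038-121918514, plus strand) and Scnn1g (ENSMUSG00000000216; chr7:121734479-121768475, plus strand) are neighbours on chromosome 7, with 96.6 kb between the end of Scnn1g and the start of Scnn1b. Scnn1a lies on another chromosome (ENSMUSG00000030340; chr6:125320659-125344943, plus strand). The promoters of the neighbouring pair, and that of Ano1, which moved the other way in 6-month Double libraries, are shown because these 3 genes carry the largest changes among the 9 that held in every alternative run. Each runs from 250 bases before to 50 bases after the gene's start in RefSeq on GRCm38.p6, 5′ to 3′ on the gene's strand. The capitals mark a CACTTG, which reads CAAGTG on the opposite strand.
Scnn1g promoter, chr7:121734229-121734528, plus strand: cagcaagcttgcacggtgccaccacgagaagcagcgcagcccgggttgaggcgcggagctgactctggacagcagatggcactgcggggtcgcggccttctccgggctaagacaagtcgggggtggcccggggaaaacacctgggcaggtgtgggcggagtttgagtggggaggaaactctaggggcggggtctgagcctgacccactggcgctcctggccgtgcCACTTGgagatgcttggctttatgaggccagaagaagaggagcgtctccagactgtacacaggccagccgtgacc
Scnn1b promoter, chr7:121864788-121865087, plus strand: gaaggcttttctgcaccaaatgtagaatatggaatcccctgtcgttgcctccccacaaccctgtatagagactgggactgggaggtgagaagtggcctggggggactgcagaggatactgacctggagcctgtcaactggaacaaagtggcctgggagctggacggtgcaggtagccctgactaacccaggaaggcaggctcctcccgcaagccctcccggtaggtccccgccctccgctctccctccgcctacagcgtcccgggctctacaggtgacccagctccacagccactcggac
Ano1 promoter, chr7:144738524-144738823, minus strand: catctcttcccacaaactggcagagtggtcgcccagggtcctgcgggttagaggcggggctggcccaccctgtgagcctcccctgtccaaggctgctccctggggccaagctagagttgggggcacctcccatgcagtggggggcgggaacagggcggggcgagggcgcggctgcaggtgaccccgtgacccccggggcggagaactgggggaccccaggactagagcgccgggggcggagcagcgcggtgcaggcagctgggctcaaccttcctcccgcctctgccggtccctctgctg

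Promoters of 6 of the 9 genes were matched in the RefSeq table (Scnn1b, Scnn1g, Cftr, Ano1, Atp1b1 and Aqp3). They were searched on both strands for CTCAAG and CAAGTG, letters that binding sites of NKX2-1 often hold. The Scnn1g window had 1 match, which begins at position -25 from the gene's start, and the other 5 windows had none. CTCAAG was found in 15.9%, CAAGTG in 13.6% and at least 1 of them in 26.4% of the 32851 promoters of the same length in the table. A match here is a run of letters and not a measured binding site. The Ano1 window lies inside the GENCODE gene, since RefSeq's start is downstream of GENCODE's.

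Scnn1b, the beta subunit gene, had log2 expression of 11.59, 11.98 and 11.1 in E18.5 WT libraries, against 10.27, 9.61 and 10.68 for Double libraries. Every Double library lay below every WT library. The log2 fold change was -1.37 ± 0.28, a level 2.59-fold lower (limma adjusted p = 0.00604). In Nkx libraries Scnn1b stood at 10.95, 10.59 and 10.24, again below every WT library, and the difference of -0.97 ± 0.28 just missed the threshold (limma adjusted p = 0.0553). Without WT replicate 3 it passed (-1.2, adjusted p = 0.0147). NANCI libraries, at 11.34, 11.35 and 11.09, overlapped WT (-0.3 ± 0.28, adjusted p = 0.978).

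Scnn1g, the gamma subunit gene, had log2 expression of 13.03, 13.43 and 12.7 in E18.5 WT libraries, against 12.07, 11.6 and 12.38 for Double libraries. The groups did not overlap, and the fold change of -1.03 ± 0.22 on the log2 scale, or 2.05-fold lower, passed (limma adjusted p = 0.00742). Nkx libraries lay between, at 12.77, 12.55 and 12.24, with overlap with WT (-0.53 ± 0.22, adjusted p = 0.174). Without WT replicate 3 this difference passed as well (-0.71, adjusted p = 0.0447). NANCI libraries stood at 12.89, 13.01 and 12.83, within the WT range (-0.15 ± 0.22, adjusted p = 0.978).

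Scnn1a, the alpha subunit gene that a channel cannot do without, had log2 expression of 14.02, 14.52 and 13.5 in E18.5 WT libraries. The NANCI libraries (14.15, 14.18 and 13.99), the Nkx libraries (14.48, 14.22 and 13.74) and the Double libraries (14.14, 14.08 and 14.28) all fell inside that range. Its log2 fold change against WT was 0.09 ± 0.23, 0.14 ± 0.23 and 0.15 ± 0.23 in the same order (limma adjusted p = 0.75 to 0.98). E18.5 groups that did not overlap were counted for 1 of the 9 genes in NANCI, 3 in Nkx and 3 in Double against WT, where 6.27%, 22.2% and 27.2% of all genes did not overlap. In Double against Nkx 0 of 9 genes had groups that did not overlap (8.6% of all genes).

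Between Double and Nkx at E18.5, the difference was -0.41 ± 0.28 for Scnn1b, -0.5 ± 0.22 for Scnn1g and 0.02 ± 0.23 for Scnn1a on the log2 scale (limma adjusted p = 1.0 for each). Same-numbered Nkx and Double libraries deviated together, but no label pairs them. They also matched in the sex called from Xist and Y-linked genes, a call less clear for Nkx replicate 3. With the replicate number as a block in a fit of both groups alone, 9 genes of all passed in place of 1. None of the 9 transport genes was among them, the smallest adjusted p being that of Cftr (0.349).

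At 6 months the beta and gamma genes fell in Double libraries against both other groups. Scnn1g had log2 expression of 11.36, 11.58 and 10.99 for WT, 11.41, 11.72 and 12.04 for Nkx, and 9.5, 9.56, 9.63 and 9.43 for Double libraries. The 4 Double libraries lay within 0.2 of each other and more than 1 log2 unit below every other library. Against WT the log2 fold change was -1.78 ± 0.17, 3.44-fold lower (limma adjusted p = 2.1e-05). Against Nkx it was -2.19 ± 0.17, 4.57-fold lower (limma adjusted p = 1.99e-05).

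Scnn1b stood at 11.67, 11.4 and 12.11 for 6-month WT, at 12.25, 12.13 and 12.2 for Nkx, and at 10.17, 10.92, 10.82 and 10.73 in Double libraries. Double was the lowest and Nkx the highest of the 3 groups, with no overlap between any pair of them. Scnn1b fell in Double against WT (log2 fold change -1.06 ± 0.19, 2.09-fold lower, limma adjusted p = 0.00144) and against Nkx (-1.53 ± 0.19, 2.89-fold lower, adjusted p = 0.000417). In Nkx against WT the difference of 0.47 ± 0.21 did not pass (adjusted p = 0.216), nor did that of Scnn1g (0.41 ± 0.18, adjusted p = 0.21). Scnn1a overlapped between all 6-month groups, at 13.54, 13.94 and 13.94 for WT, 13.87, 13.67 and 14.04 for Nkx, and 13.75, 13.36, 14.12 and 14.58 for Double libraries (0.15 ± 0.24 in Double against WT, adjusted p = 0.674). At 6 months, groups that did not overlap were counted for 3 of the 9 genes in Nkx against WT, 5 in Double against WT and 3 in Double against Nkx, beside 30.5%, 40.1% and 31.8% of all genes.

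Sex differed between the 6-month groups, since all Double libraries were female. With sex as a term in the fit, the Double-against-WT difference was -1.46 for Scnn1g (limma adjusted p = 9.14e-05) and -1.26 for Scnn1b (adjusted p = 0.00334). The calls of Scnn1b and Scnn1g in E18.5 Double against WT, and in both 6-month comparisons with Double, held in every alternative run, leaving out each library included.

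**Figure D2:**
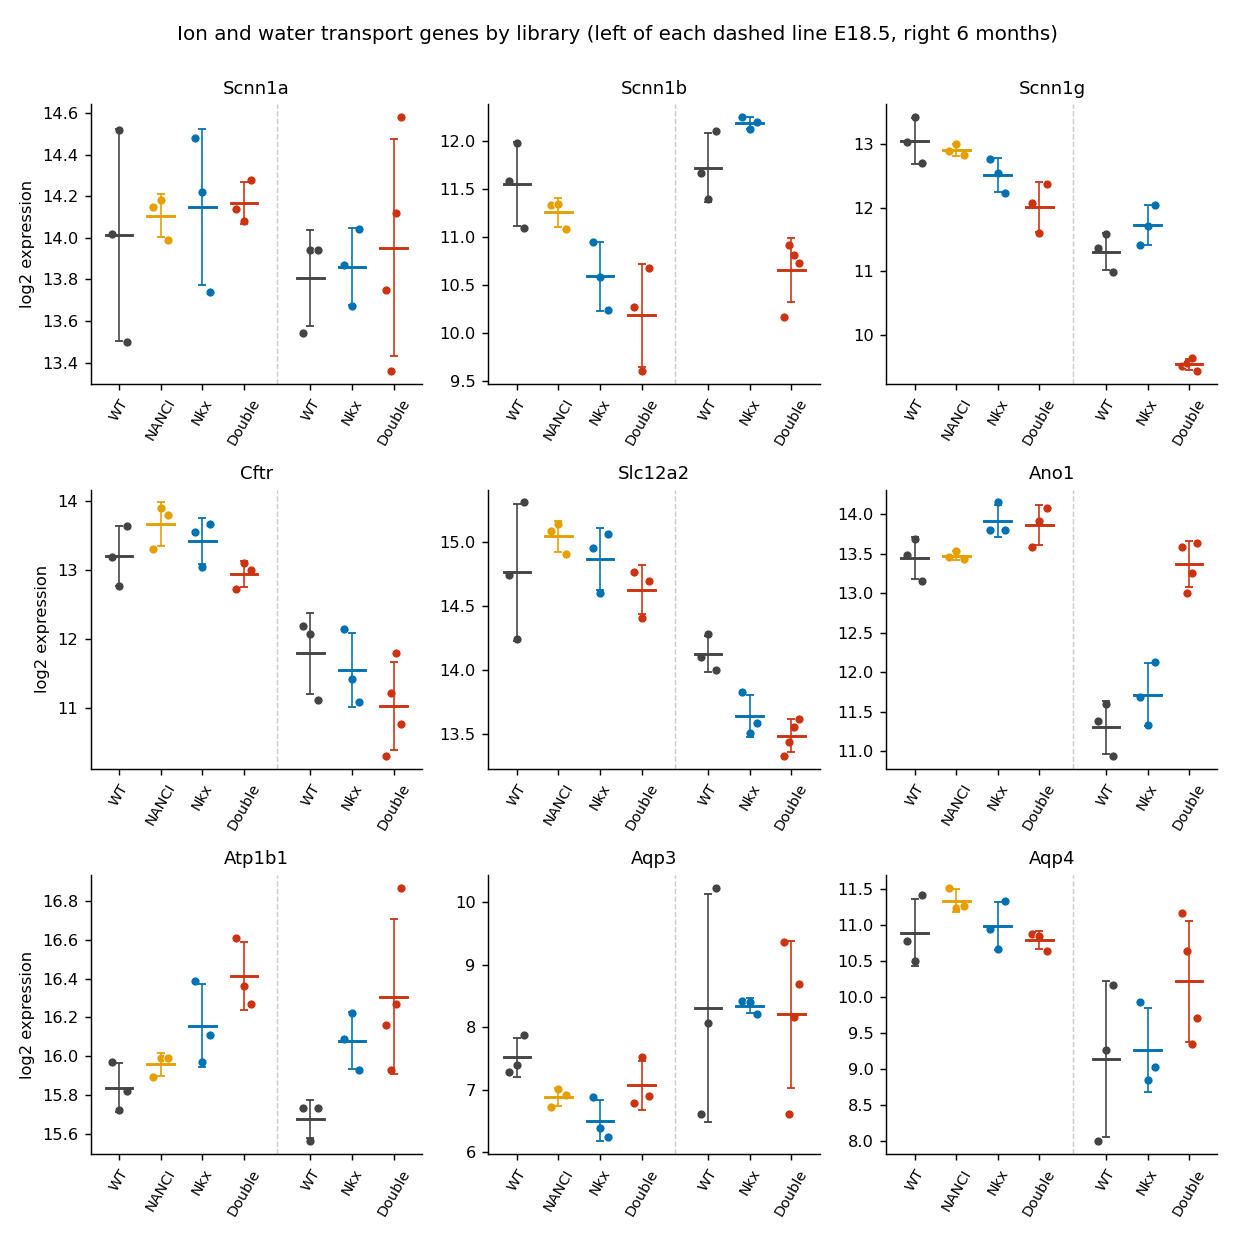
Log2 expression of the 9 transport genes in each library (points), with group means (thick bars) and SD (thin bars); E18.5 groups are left of the dashed line and 6-month groups right of it, and each panel has its own axis that does not start at 0. Scnn1b and Scnn1g stand lowest in Double at both ages, Ano1 stands apart in 6-month Double (13 to 13.63 against 10.94 to 11.6 in WT), and Aqp3 and Aqp4 spread widely within 6-month WT.

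The difference between subunit genes inside a library is given as a description. It cancels a single scaling factor of that library, but not shifts from normalisation to a common distribution, which can differ with a gene's rank. Scnn1g minus Scnn1a was -0.96 ± 0.15 for E18.5 WT, -1.2 ± 0.06 for NANCI, -1.63 ± 0.11 in Nkx and -2.15 ± 0.3 in Double (mean log2 difference ± SD, n = 3 each). The ranges of these 4 groups did not overlap, and the alpha gene gained on the gamma gene in the order WT, NANCI, Nkx, Double. The pair was chosen by function, and how often other gene pairs separate the groups in this way was not counted. Scnn1b minus Scnn1a followed the same order, at -2.45 ± 0.07, -2.85 ± 0.05, -3.56 ± 0.07 and -3.98 ± 0.44, with overlap between Nkx and Double (-3.63 to -3.51 and -4.47 to -3.6). At 6 months Scnn1g minus Scnn1a was -2.5 ± 0.41 for WT, -2.14 ± 0.28 in Nkx and -4.43 ± 0.56 in Double (n = 3, 3 and 4). Scnn1b minus Scnn1a was -2.08 ± 0.4, -1.67 ± 0.16 and -3.29 ± 0.61 in the same groups. There the Double libraries were set apart from both other groups for the gamma gene, while for the beta gene the highest Double library (-2.44) passed the lowest WT library (-2.55).

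**Figure D3:**
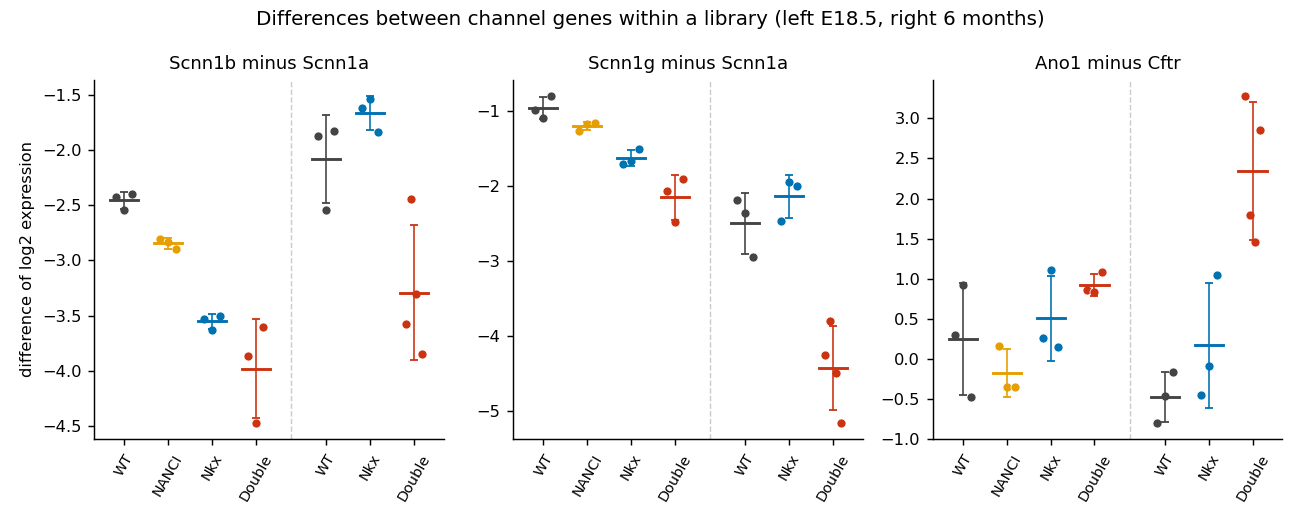
Difference of log2 expression between 2 genes of the same library (points), with group means (thick bars) and SD (thin bars), E18.5 left and 6 months right of the dashed line. The beta and gamma ENaC genes drop away from the alpha gene from WT to Double at E18.5, and Ano1 minus Cftr is highest in 6-month Double, at 1.45 to 3.28.

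Of the chloride secretion genes, Ano1 was the one that rose, Slc12a2 fell at 6 months, and Cftr did not pass in any comparison. Ano1 (ENSMUSG00000031075; GRCm38 chr7:144588549-144751974, minus strand) had log2 expression of 11.38, 11.6 and 10.94 for 6-month WT, 11.69, 11.33 and 12.13 for Nkx, and 13.58, 13, 13.26 and 13.63 for Double libraries. Every Double library lay above every WT and Nkx library. The log2 fold change was 2.06 ± 0.22 against WT, 4.16-fold higher (limma adjusted p = 4.25e-05), and 1.65 ± 0.22 against Nkx, 3.13-fold higher (adjusted p = 0.000525). Both calls held in every alternative run, and with a sex term the difference from WT was 2.45 (adjusted p = 3.28e-05). In 6-month Nkx against WT it was 0.41 ± 0.23 (adjusted p = 0.325).

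At E18.5 the Ano1 differences did not pass. Ano1 stood at 13.49, 13.68 and 13.16 for WT, 13.46, 13.54 and 13.43 for NANCI, 13.8, 14.15 and 13.8 for Nkx, and 13.58, 13.92 and 14.08 for Double libraries. The Nkx libraries lay above every WT library (0.47 ± 0.17, limma adjusted p = 0.116), the Double libraries overlapped WT (0.41 ± 0.17, adjusted p = 0.128), and NANCI lay inside the WT range (0.03 ± 0.17, adjusted p = 0.986).

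Slc12a2, the chloride-loading cotransporter gene (ENSMUSG00000024597; GRCm38 chr18:57878678-57946821, plus strand), had log2 expression of 14.1, 14.28 and 14.0 for 6-month WT, 13.83, 13.51 and 13.59 for Nkx, and 13.33, 13.44, 13.56 and 13.62 for Double libraries. All Nkx and all Double libraries lay below all WT libraries. It fell by 0.64 on the log2 scale in Double (SE 0.12, 1.56-fold lower, limma adjusted p = 0.00201), a call that held in every alternative run (-0.6 with a sex term, adjusted p = 0.0222), while the Nkx difference of -0.49 ± 0.13 did not pass (adjusted p = 0.077). Double and Nkx overlapped (-0.15 ± 0.12, adjusted p = 0.408). At E18.5 its values were 14.74, 14.24 and 15.31 for WT, a range that held all libraries of the other groups (14.91 to 15.14 for NANCI, 14.6 to 15.06 in Nkx and 14.41 to 14.77 in Double; adjusted p = 0.773 to 0.978 against WT).

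Cftr (ENSMUSG00000041301; GRCm38 chr6:18170687-18322768, plus strand), the gene mutated in cystic fibrosis, had log2 expression of 12.18, 12.07 and 11.11 for 6-month WT, 12.14, 11.42 and 11.09 for Nkx, and 10.3, 11.21, 11.8 and 10.77 for Double libraries. The groups overlapped, and the Double difference of -0.77 ± 0.36 did not pass (limma adjusted p = 0.122). It passed without WT replicate 3 (-1.1, adjusted p = 0.0467) or without Double replicate 3 (-1.03, adjusted p = 0.0365). At E18.5 Cftr stood at 13.19, 12.76 and 13.64 for WT, 13.3, 13.89 and 13.79 for NANCI, 13.54, 13.04 and 13.66 for Nkx, and 12.72, 13.09 and 13 for Double libraries. NANCI was the highest group on average and Double the lowest, but each overlapped WT (0.46 ± 0.23 and -0.26 ± 0.23, adjusted p = 0.978 and 0.537). The gene model Gm15592 shares 1.66% of its exon bases on the opposite strand, and the sources used here do not give strand use in counting.

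Set against each other inside a library, Ano1 minus Cftr was -0.48 ± 0.31 for 6-month WT, 0.17 ± 0.77 in Nkx and 2.35 ± 0.86 in Double (mean log2 difference ± SD, n = 3, 3 and 4). The lowest Double library, at 1.45, lay above the highest Nkx library, at 1.04. At E18.5 the same difference was 0.25 ± 0.71 for WT, -0.18 ± 0.3 for NANCI, 0.5 ± 0.52 in Nkx and 0.92 ± 0.14 in Double (n = 3 each), and WT overlapped every other group. These within-library differences are not corrected for gene length and show the change between groups, not which channel gene is more abundant.

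Atp1b1, whose beta subunit brings the sodium pump to the basolateral membrane, was higher in Double libraries at both ages. Atp1b1 (ENSMUSG00000026576; GRCm38 chr1:164437109-164458355, minus strand) had log2 expression of 15.97, 15.72 and 15.82 for E18.5 WT, 15.89, 15.99 and 15.99 for NANCI, 16.39, 15.97 and 16.11 for Nkx, and 16.61, 16.36 and 16.27 for Double libraries. Double lay above every WT library and rose by 0.58 ± 0.15 on the log2 scale, 1.49-fold (limma adjusted p = 0.0259). This call was lost without WT replicate 2 (adjusted p = 0.0815), without Double replicate 1 (0.0893), without Double replicate 2 (0.0502) and in a fit of both groups alone (0.112). The NANCI and Nkx differences were 0.12 ± 0.15 and 0.32 ± 0.15 (limma adjusted p = 0.978 and 0.255).

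At 6 months Atp1b1 stood at 15.73, 15.56 and 15.73 for WT, 16.09, 16.22 and 15.93 for Nkx, and 16.16, 15.93, 16.27 and 16.87 for Double libraries. Both mutant groups lay above every WT library, and they overlapped each other. The Double difference of 0.64 ± 0.22, or 1.56-fold, passed (limma adjusted p = 0.0399) and that of Nkx, 0.41 ± 0.23, did not (adjusted p = 0.33). The Double call held in 6 of 15 alternatives: it was lost with a sex term (0.53, adjusted p = 0.2) and without WT replicate 1, 2 or 3 (adjusted p = 0.078, 0.121 and 0.0834), Double replicate 3 (0.0573) or Double replicate 4 (0.0645), and in 3 other fits (0.0504 to 0.115). Nme7 shares 18.7% of the exon bases of Atp1b1 on the opposite strand, so reads of the 2 genes cannot be told apart there if strand was not used.

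Among the water channel genes, a single difference passed, a lower level of Aqp3 in E18.5 Nkx libraries. Aqp3 (ENSMUSG00000028435; GRCm38 chr4:41092722-41098183, minus strand) had log2 expression of 7.29, 7.39 and 7.87 for WT, 6.72, 7.01 and 6.91 for NANCI, 6.88, 6.39 and 6.25 for Nkx, and 6.79, 7.52 and 6.9 for Double libraries. All NANCI and all Nkx libraries lay below all WT libraries, and Double overlapped WT. The Nkx difference was -1.01 ± 0.28, 2.02-fold lower (limma adjusted p = 0.0482), that of NANCI -0.64 ± 0.28 (adjusted p = 0.978) and that of Double -0.45 ± 0.28 (adjusted p = 0.345). The Nkx call was close to the threshold and was lost without WT replicate 1, 2 or 3 (adjusted p = 0.0887, 0.083 and 0.0786) and without Nkx replicate 2 or 3 (0.138 and 0.177). With the library complexity that stands in for depth as a term, it was lost as well (-1.06, adjusted p = 0.0739).

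At 6 months Aqp3 varied widely within the WT and Double groups, at 6.61, 8.07 and 10.23 for WT, 8.42, 8.4 and 8.21 for Nkx, and 9.36, 6.61, 8.16 and 8.69 for Double libraries. A difference of the size seen at E18.5 was not detectable with that spread, since the standard error of Double against WT was 0.75. Aqp4 (ENSMUSG00000024411; GRCm38 chr18:15389496-15410982, minus strand) stood at 7.99, 9.26 and 10.16 for 6-month WT, 9.93, 8.84 and 9.02 for Nkx, and 11.17, 10.64, 9.34 and 9.71 for Double libraries. The Double difference of 1.08 ± 0.52 did not pass (limma adjusted p = 0.129). It passed without WT replicate 3 (1.59, adjusted p = 0.0425) and was 0.45 with a sex term (adjusted p = 0.623). At E18.5 Aqp4 values ran from 10.5 to 11.41 for WT, 11.23 to 11.52 for NANCI, 10.67 to 11.34 in Nkx and 10.64 to 10.87 in Double, all overlapping WT.

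Other genes of the same pathways were read from lists of 7 groups. Their counts stand beside the shares of all genes given above: 7.32% called in E18.5 Nkx, 14.6% in E18.5 Double, 2.63% in 6-month Nkx and 36.3% in 6-month Double, each against WT. Among other aquaporins, Aqp1, a water channel of blood vessels and of some epithelia, had the largest change. It stood at 15.02, 15.24 and 14.18 for E18.5 WT, 14.41, 14.5 and 14.15 for NANCI, 10.95, 11.91 and 11 for Nkx, and 11.93, 11.32 and 12.1 for Double libraries (log2 expression). The Nkx and Double libraries lay well below the others, and Aqp1 fell in Nkx (-3.53 ± 0.31 on the log2 scale, 11.5-fold lower, limma adjusted p = 8.84e-05) and in Double (-3.03 ± 0.31, 8.15-fold lower, adjusted p = 8.05e-05). At 6 months it stood at 12.75, 12.98 and 13.85 for WT, 13.37, 12.81 and 11.86 for Nkx, and 9.45, 10.62, 9.17 and 10.17 for Double libraries. Double was far below both other groups (-3.34 ± 0.41 against WT, 10.1-fold lower, adjusted p = 0.000107), and Nkx overlapped WT (-0.52 ± 0.44, adjusted p = 0.523).

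Aqp5, the apical water channel of AT1 cells and airway glands, did not pass in any comparison. In 6-month libraries it lay between 13.97 and 14.53 in every group, and the Double difference from WT was -0.02 ± 0.18 (limma adjusted p = 0.932). At E18.5 that difference was -0.52 ± 0.36 (adjusted p = 0.395). Aqp11 rose in 6-month Double against WT (1.24 ± 0.34, adjusted p = 0.0147).

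Among genes that regulate ENaC, 2 of 16 measured fell in E18.5 Nkx and 3 of 16 in E18.5 Double against WT, and 0 rose in either, where 3.65% and 7.47% of all genes fell. Sgk1, a kinase that keeps ENaC at the cell surface, stood at 10.65, 9.73 and 9.98 for E18.5 WT, 9.02, 7.96 and 8.11 for Nkx, and 8.91, 7.79 and 8.93 for Double libraries. Every Nkx and Double library lay below every WT library (-1.76 ± 0.45 in Nkx and -1.58 ± 0.45 in Double, limma adjusted p = 0.0329 and 0.0339). The NANCI libraries, at 8.19, 9.88 and 9.31, overlapped WT and also reached into the Nkx and Double range, and their difference from WT did not pass. Tmprss4, a membrane protease of a kind that activates ENaC, fell in Nkx and in Double (log2 fold changes -0.97 ± 0.25 and -1.14 ± 0.25, adjusted p = 0.035 and 0.00916). Stk39, the kinase SPAK that acts on Slc12a2, fell by 0.4 in Double (SE 0.11, adjusted p = 0.0326). At 6 months, 5 of 17 regulators rose and 4 fell in Double against WT (18.4% and 17.9% of all genes), in which Hsd11b2, an enzyme that shields the mineralocorticoid receptor from glucocorticoids, rose by 1.15 ± 0.29 and Cnksr3, a scaffold of ENaC regulation, fell by 0.9 (SE 0.15). Tmprss4 was the 1 gene of 17 that passed in Nkx against WT (-1.35 ± 0.28, limma adjusted p = 0.0321). It was higher in 6-month Double than in Nkx (0.84 ± 0.26, limma adjusted p = 0.0389). Its Double values, 11.31 to 12.22, overlapped those of WT, 12.13 to 12.65.

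FXYD proteins are small partners of the sodium pump, and the rise of Fxyd3 passed where an Nkx2.1-GFP allele was present at both ages. The E18.5 NANCI libraries, at 10.36, 10.28 and 10.22, also lay above every WT library, but that difference did not pass. Fxyd3 stood at 9.84, 10.01 and 9.38 for E18.5 WT, 10.93, 11.88 and 11.44 for Nkx, and 11.25, 12.57 and 11.77 for Double libraries (1.67 ± 0.31 in Nkx and 2.12 ± 0.31 in Double against WT, limma adjusted p = 0.00605 and 0.000741). At 6 months it stood at 7.9, 7.54 and 8.52 for WT, 9.85, 10.79 and 9.52 for Nkx, and 12.95, 12.59, 12.03 and 12.24 for Double libraries. The 3 groups formed separate steps, with a difference from WT of 2.07 ± 0.34 in Nkx (adjusted p = 0.0163) and 4.46 ± 0.32 in Double, 22.1-fold higher (adjusted p = 4.09e-06). Of the pump and FXYD genes, 2 of 5 rose and 0 fell in E18.5 Double against WT, beside 14.6% of all genes called. In 6-month Double against WT 4 of 10 rose and 2 fell, beside 36.3% of all genes called, and there Fxyd1 fell (-3.64 ± 0.73, adjusted p = 0.00246).

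Anion channel and exchanger genes were called about as often as all genes. In E18.5 Double against WT 1 of 20 rose and 2 fell, beside 14.6% of all genes called: Ano9, a relative of Ano1, rose by 1.21 ± 0.24 (limma adjusted p = 0.00561), and the bicarbonate cotransporter gene Slc4a5 (-1.95 ± 0.27) and the chloride channel gene Slc26a9 (-0.74 ± 0.18) fell. In 6-month Double against WT 5 of 26 rose and 6 fell, beside 36.3% of all genes called. Ano9 stood at 7.6, 7.03 and 6.79 in WT and at 9.9, 9.68, 9.59 and 9.34 in Double libraries with no overlap (2.49 ± 0.23, adjusted p = 1.76e-05), Clca1 rose by 3.01 ± 0.62, and Slc4a5 fell by 1.21 (SE 0.28). In E18.5 Nkx against WT 0 of 20 rose and 2 fell (Slc4a5, -1.71 ± 0.27, and Slc26a6, -1.24 ± 0.33), and in 6-month Nkx against WT 0 of 26 passed.

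Of epithelial potassium channel genes, which set the voltage that drives secretion, 3 of 9 rose and 2 fell in 6-month Double against WT, where 18.4% of all genes rose and 17.9% fell. Kcne3, a partner subunit of Kcnq1, stood at 4.55, 5.15 and 7.05 for WT, 8.03, 8.99 and 8.19 for Nkx, and 10.88, 8.99, 8.81 and 9.65 for Double libraries. Both mutant groups lay above every WT library (2.82 ± 0.64 and 4.0 ± 0.6, limma adjusted p = 0.0436 and 0.000409). In E18.5 Double against WT Kcnq1 rose by 1.15 ± 0.2 and Kcne2 fell by 1.56 (SE 0.27), the 2 genes of 8 that passed (14.6% of all genes). Of the receptor and signalling genes, 0 of 7 rose and 2 fell in E18.5 Double against WT (7.13% and 7.47% of all genes), and 1 of 12 rose and 4 fell in 6-month Double against WT (18.4% and 17.9% of all genes). Adora2b, an adenosine receptor, fell in both (-1.59 ± 0.4 and -0.59 ± 0.18, adjusted p = 0.0201 and 0.0277).

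Genes of proton and carbonic acid handling, which bear on the pH of the lining fluid, counted 1 of 7 higher and 2 lower in E18.5 Double against WT, beside 14.6% of all genes called. In 6-month Double against WT 1 of 12 was higher and 3 were lower, a share no larger than the 36.3% of all genes. Atp6v1b1, a subunit of the proton pump, rose in both (2.26 ± 0.39 and 1.43 ± 0.4, limma adjusted p = 0.00227 and 0.0153), and Car8, a carbonic anhydrase relative without the enzyme activity, fell in the E18.5 comparison (-1.44 ± 0.17, adjusted p = 0.000218). The median log2 fold change of the 7 lists lay between -0.52 and 0.12 in E18.5 Double and between -0.3 and 0.58 in 6-month Double against WT, where that of all genes was 0.02 and 0.06; the widest values were those of the aquaporins, of which 3 and 5 were measured. In E18.5 NANCI against WT and in E18.5 Double against Nkx, limma called 0 genes of these 7 lists. Of all genes it called 0.0% and 0.00727% there, so these counts say nothing particular to transport genes.

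**Figure D4:**
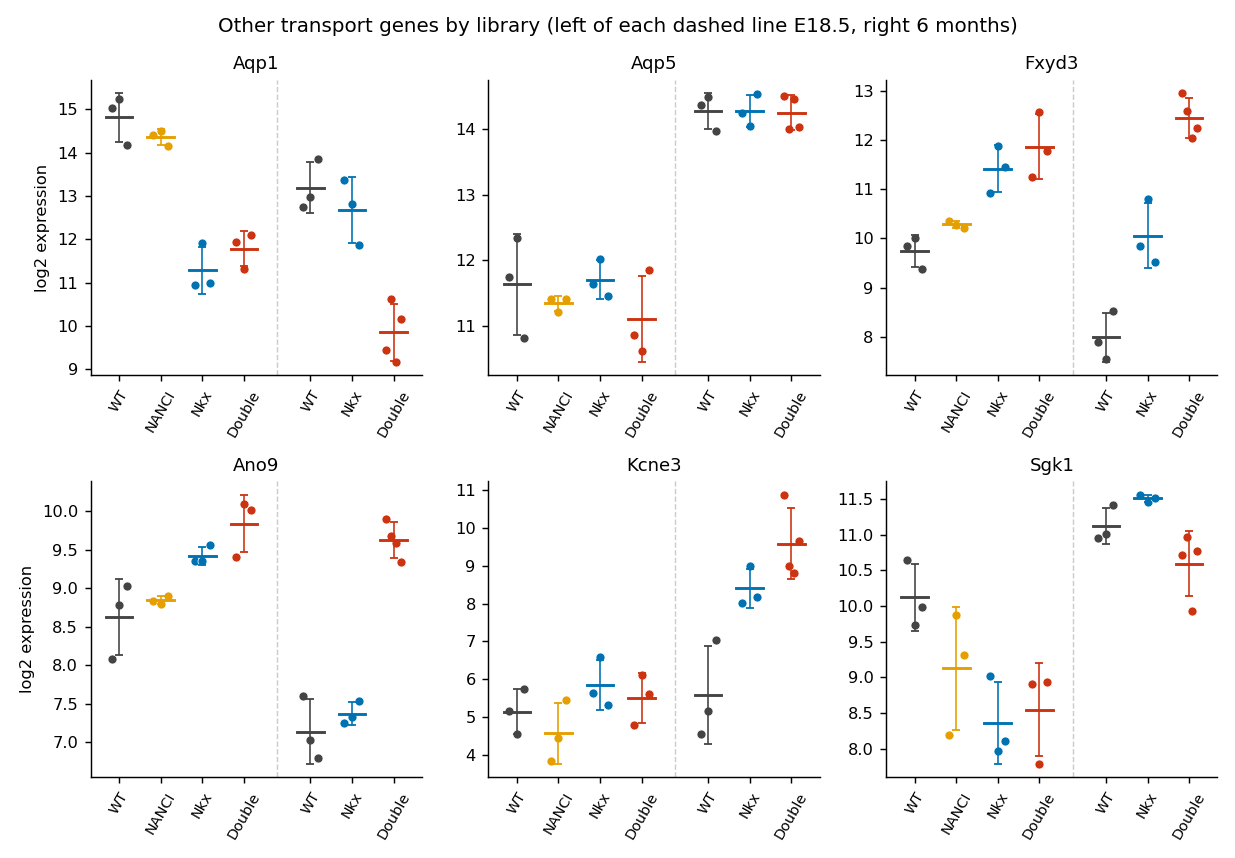
Log2 expression of 6 other transport genes in each library (points), with group means (thick bars) and SD (thin bars), E18.5 left and 6 months right of the dashed line; each panel has its own axis that does not start at 0. Aqp1 is low in Nkx and Double at E18.5 and in Double at 6 months, Fxyd3 climbs from WT to Double at both ages, and Aqp5 overlaps between groups.

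Markers of several cell types moved with these groups, and their part in the results above was not tested. Fewer cells of a type and less RNA per cell cannot be told apart in these bulk libraries. The marker counts stand beside the shares of all genes. In E18.5 Double against WT 7.47% of all genes fell and 7.13% rose, and in E18.5 Nkx 3.65% fell and 3.67% rose. In 6-month Double 17.9% fell and 18.4% rose against WT, and 11.5% fell and 10.2% rose against Nkx. AT2 cells make the surfactant of the alveolus. Of their 12 markers 11 fell and 0 rose in E18.5 Double against WT, with a summed log2 level of 20.43 to 20.79 for WT, 19.54 to 20.08 in Nkx and 18.96 to 19.7 in Double. At 6 months 9 of these 12 markers fell in Double against WT and 7 against Nkx, and 0 rose. The summed AT2 level there was 22.34 to 22.52 for WT, 22.22 to 22.24 for Nkx and 20.54 to 22.12 for Double, which lay below both other groups. AT1 cells are the thin cells across which gas is exchanged. Of their 12 markers, 3 fell in E18.5 Double against WT and 7 fell in 6-month Double against WT, where the summed level was 17.18 to 17.9 for WT, 17.57 to 18.21 in Nkx and 16.52 to 16.93 in Double. Of 11 ciliated cell markers, 5 fell in E18.5 Double and 10 in 6-month Double against WT (15.83 to 16.29 in WT and 14.57 to 15.2 in Double at 6 months).

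Pan-epithelial markers rose in 3 of 10 genes in E18.5 Double and in 9 of 10 in 6-month Double against WT, with a summed log2 level of 16.64 to 16.7 for 6-month WT, 16.79 to 17.05 for Nkx and 17.49 to 18.03 for Double. Secretory cell markers rose in 4 of 10 genes and fell in 1 in 6-month Double against WT, but against Nkx 1 of 10 rose and 3 fell. In E18.5 Double against WT 2 of 9 rose and 1 fell. Goblet and gut markers moved upward: 10 of 11 rose in E18.5 Nkx and in E18.5 Double, and 10 of 10 in 6-month Double, each against WT. Their summed log2 level at 6 months was 10.29 to 11.69 for WT, 12.63 to 13.34 in Nkx and 15.3 to 16.29 in Double, and at E18.5 Tff2, Gcnt3 and Muc13 stood at the lowest value of every WT library. Endothelial markers, at 15.1 to 16.21 for 6-month WT, 14.44 to 15.42 in Nkx and 12.09 to 13.21 in Double libraries, fell in 10 of 10 genes in Double against WT, in cells sorted as CD31-. Mesenchymal markers fell in 8 of 9 genes there (12.9 to 13.76 in WT and 9.96 to 11.69 in Double). At E18.5, leukocyte markers fell in 8 of 10 genes in Double and in 5 of 10 in Nkx, each against WT, and 0 rose. The summed levels, which the highest genes dominate, were 13.78 to 13.94 in WT, 13.9 to 14.03 in Nkx and 13.37 to 13.84 in Double. The mean log2 level over the 10 genes moved more, at 7.53 to 7.83 in WT, 4.76 to 5.8 in Nkx and 4.71 to 5.51 in Double. At 6 months, in cells sorted as CD45-, 2 of 13 rose and 1 fell in Double against WT. Their summed level there was 13.15 to 13.53 for WT, 13.51 to 13.97 in Nkx and 13.96 to 14.91 in Double. Ionocytes are cells in which Cftr is concentrated, and 2 of their 5 listed markers were measured. Foxi1 and Ascl3 were absent from the genes of both ages, and whether the measured 2 track ionocytes here was not tested. Of the measured 2, Atp6v1c2 fell in E18.5 Double (-1.2 ± 0.17, limma adjusted p = 0.000571) and in 6-month Double against WT (-1.34 ± 0.17, adjusted p = 0.000133). The other, Atp6v0d2, did not pass in either (-0.86 ± 0.32 and 1.93 ± 0.88, limma adjusted p = 0.101 and 0.107), and its value at 6 months had the opposite sign.

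**Figure D5:**
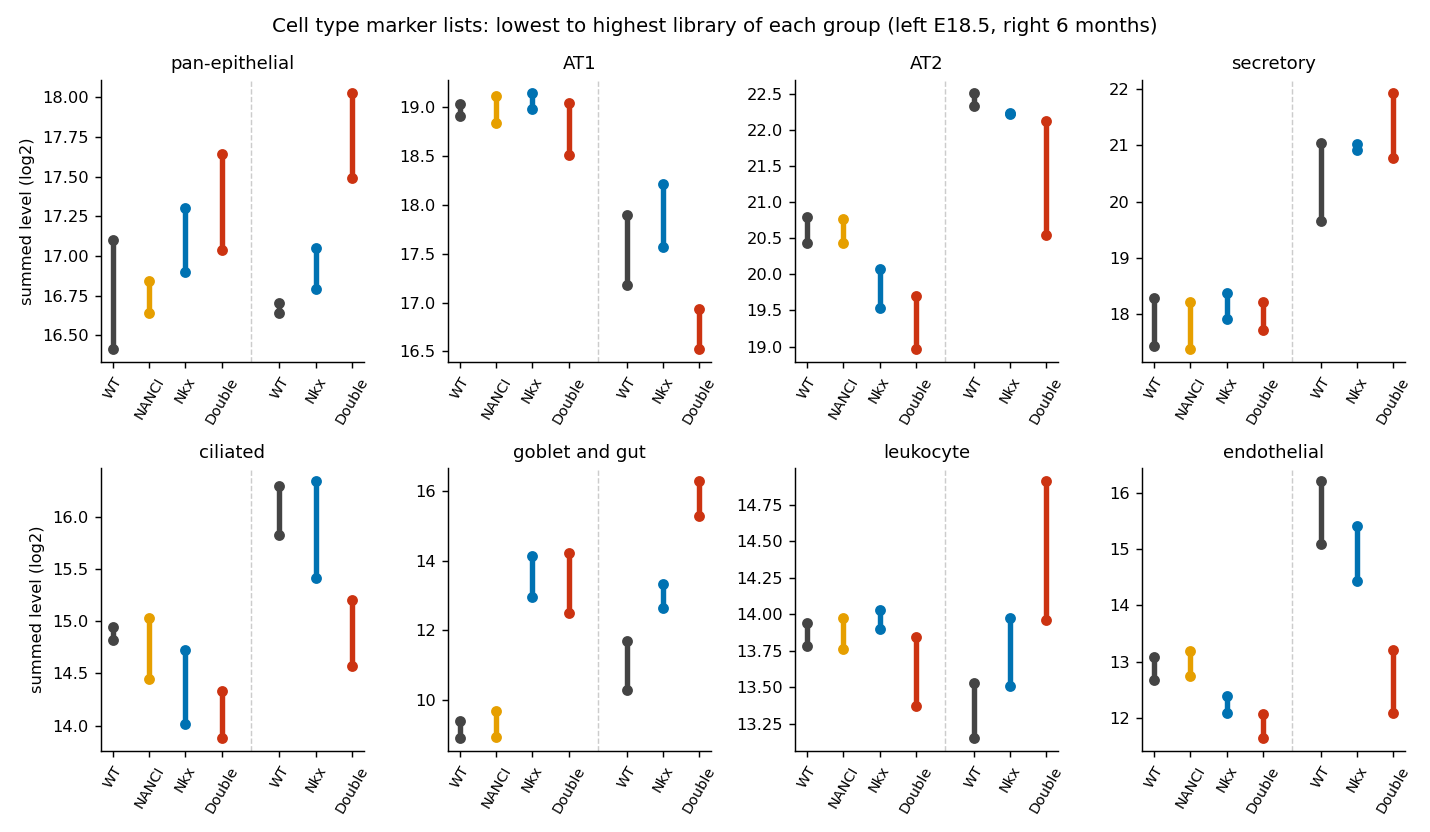
Lowest and highest library (joined points) of each group for the summed level of 8 cell type marker lists, as log2 of the sum of linear values, E18.5 left and 6 months right of the dashed line; each panel has its own axis that does not start at 0. AT2 levels are lower in E18.5 Nkx and Double than in WT, and among the 6-month groups AT2, AT1 and endothelial levels are lowest in Double.

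Across libraries, Scnn1b and Scnn1g followed each other, with a Pearson correlation of 0.98 over the 12 E18.5 libraries and 0.88 over the 10 6-month libraries. Scnn1a followed neither (0.24 and 0.28 at E18.5, -0.12 and -0.17 at 6 months). Ano1 ran against Scnn1b (-0.47 and -0.87) and Scnn1g (-0.4 and -0.85), and Cftr and Slc12a2 went together at both ages (0.77 and 0.67). These values describe libraries that share genotype groups and normalisation.

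The genes most like each member were those with the highest smaller correlation of the 2 ages among 12058 genes. For Scnn1g they were Pmp22 (0.96 at E18.5 and 0.98 at 6 months), Lims2 (0.95 and 0.94) and Atp6v1c2 (0.93 and 0.96), and for Scnn1b Tspan11 (0.93 and 0.94) and Lims2 (0.96 and 0.92). Ano1 was most like Fam83h (0.92 and 0.94), Tes (0.92 and 0.97) and Fads3 (0.94 and 0.92), and Slc12a2 most like Mysm1 and Etnk1 (0.91 and 0.94 for each) and Ubr1 (0.9 and 0.89). For Atp1b1 the nearest genes were Sgms2 (0.86 and 0.89), Car5b (0.88 and 0.86) and Slc7a1 (0.86 and 0.86). The nearest genes were less alike for Scnn1a (Fbxo31, 0.81 and 0.79), Cftr (Cracr2a, 0.76 and 0.77), Aqp4 (Caprin1, 0.72 and 0.72) and Aqp3 (Lmo1, 0.64 and 0.8).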

How the data were processed

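RNA from lung epithelial cells was measured in 22 libraries, 12 at E18.5 and 10 at 6 months, grouped by the genotype and age in the labels. The authors deposited 1 log2 expression value per Ensembl gene ID and library, and the submitters' processing notes name STAR and limma and the mm9 build without versions or settings. The deposited values show nearly the same value at equal rank in every library of an age (median SD 0.00187 and 0.00242 on the log2 scale), as quantile normalisation within an age leaves them; no header or label records that step, and it limits shifts that touch most genes. Low values tied across genes of different length show no division by gene length. Gene symbols, exon lengths and coordinates came from GENCODE on GRCm38 and matched 99.2% of E18.5 and 96.2% of 6-month IDs; they are not in the authors' build.

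Each age was fitted as 1 linear model over all genes and groups with limma 3.58.1 in R 4.3.3, with moderated variances that follow the mean level, and Benjamini-Hochberg adjustment with a threshold of 0.05. Fold changes are given with their SE. The fit was tested on simulated data. Alternatives were a replicate block, sex or complexity terms, both groups alone, no mean trend, a mean level of at least 5, a pseudocount of 2 to the power 5 on the linear scale, centring on a mean difference trimmed by 0.3, and leaving out each library. Complexity counts the distinct values in the lower part of a library, up to its median (E18.5 range 209 to 284, 6-month range 128 to 382), and stands in for read depth, which is unknown. Same-numbered E18.5 Nkx and Double libraries deviated together (correlations 0.357, 0.557 and 0.228), and these numbers were taken as pairs in a block. The labels name no shared litter or day. These libraries also matched in called sex, which cannot be told apart from pairing. The block with both groups alone was chosen after seeing the data.

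The 9 genes are all described. From each pathway list up to 4 passing genes with the largest change could be named, and from each marker list the 1 largest; Aqp5, for its role, and Atp6v0d2, as the other measured marker of its list, are named outside this rule, after their values were seen. Some genes that the rule names are not reported here. The nearest genes by correlation had a mean of at least 5 at both ages. Members and lists were chosen with earlier results of these data known. Python 3.11.15, pandas 2.3.3, numpy 2.4.6 and matplotlib 3.10.9 were used.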

Additional observations from a re-analysis of the deposited data

Results flagged for a closer look

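Scnn1b in Nkx libraries lay on opposite sides of WT at the 2 ages. Every E18.5 Nkx library lay below every WT library, with a log2 fold change of -0.97, and every 6-month Nkx library lay above every WT library, with a log2 fold change of 0.47. Neither difference passed the adjusted threshold, and the difference between the ages was not tested, since the ages were normalised separately and their cells were isolated in different ways.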

How the results depend on the processing

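The count of the 9 genes called in E18.5 Nkx against WT was 1, and 0.0 with a replicate block, with both groups fitted alone, or with the complexity term; it ran from 0.0 to 2.0 when each library was left out. In the other comparisons the count of genes called stayed within 1.5 times of its value. Outside E18.5 Double against Nkx, no pair of groups had positive correlations for all same-numbered libraries. Single values were as high, however. For E18.5 WT and Nkx they were -0.201, 0.508 and 0.418, and for E18.5 WT and Double -0.207, 0.481 and 0.051. Whether the numbers pair libraries is therefore not settled. The replicate block took the count of all genes called in 6-month Nkx against WT from 419 to 94. In 6-month Double against Nkx it took that count from 3460 to 2272.

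Sign changes were found among differences that did not pass. With a sex term Ano1 in E18.5 NANCI against WT was -0.02, Aqp3 and Aqp4 in 6-month Nkx against WT were -0.48 and -0.19. With the complexity term that Ano1 value was -0.0, Cftr and Slc12a2 in E18.5 Double against WT were 0.0 and 0.08, and Aqp3 in 6-month Double against WT was 0.05. With the pseudocount Aqp3 in 6-month Nkx against WT was -0.03. With a replicate block Scnn1a was -0.06 in 6-month Double against WT and -0.11 in 6-month Double against Nkx. Leaving out each library in turn, E18.5 NANCI against WT ran from -0.16 to 0.35 for Scnn1a, -0.32 to 0.04 for Scnn1g and -0.11 to 0.15 for Ano1. E18.5 Nkx against WT ran from -0.12 to 0.39 for Scnn1a, -0.0 to 0.44 for Cftr, -0.16 to 0.38 for Slc12a2 and -0.1 to 0.35 for Aqp4. E18.5 Double against WT ran from -0.11 to 0.41 for Scnn1a, -0.4 to 0.14 for Slc12a2 and -0.3 to 0.15 for Aqp4, and E18.5 Double against Nkx from -0.19 to 0.18 for Scnn1a and -0.17 to 0.08 for Ano1. 6-month Nkx against WT ran from -0.08 to 0.15 for Scnn1a, -0.81 to 1.0 for Aqp3 and -0.45 to 0.64 for Aqp4. 6-month Double against WT ran from -0.06 to 0.34 for Scnn1a and -0.95 to 0.86 for Aqp3, and 6-month Double against Nkx from -0.11 to 0.29 for Scnn1a and -0.52 to 0.4 for Aqp3. The cause of these changes was not tested.

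Counts over all genes moved by more than 1.5 times in several comparisons. For E18.5 Nkx against WT the count was 1007, against 491 with both groups alone and 466 to 2179 without 1 library. For E18.5 Double against WT it was 2008, against 928 with both groups alone and 1182 to 2691 without 1 library. For 6-month Nkx against WT it was 419, against 228 with a sex term, 98 without the mean trend and 59 to 211 without 1 library. For 6-month Double against WT it was 5795, against 3851 with a sex term. For 6-month Double against Nkx it was 3460, against 2204 without Nkx replicate 1. In E18.5 NANCI against WT the count was 0, with 3 without the mean trend and up to 2 without 1 library, and in E18.5 Double against Nkx it was 1, with 3 in both groups alone or with the complexity term and 6 with the pseudocount. Centring turned no direction of the 9 genes. Group sizes of 3 or 4 libraries, unknown read depth and unknown strand use limit what small differences can show.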
